A study of Mus musculus with 12 samples.

Results

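The genes examined were the mitochondrial carrier genes of the solute carrier family 25, taken as every gene whose symbol starts with Slc25a, with Slc25a20 left out. A RefSeq gene table of the mm10 assembly held 46 such protein-coding genes among 21887, and 32 of them had at least 1 peak assigned. Together they received 91 of the 52818 deposited peaks, 41 of 30534 in the Meis1 list and 50 of 22284 in the Hoxb13 list. A Slc25a5 pseudogene in the same table had no peak in either list and was not counted.

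The chromatin was from ventricles taken at postnatal day 15 from mice of the outbred CD-1 strain, and was immunoprecipitated with an antibody to Meis1 or to Hoxb13. The 12 libraries formed 4 groups of 3: Meis1 precipitates (replicates 1 to 3), Hoxb13 precipitates (replicates 4 to 6), and an input group for each. All libraries shared strain, tissue and age, no allele or treatment was named for any group, and whole ventricle holds several cell types that a peak list cannot separate. Each factor had 1 deposited peak list that covered its 3 libraries and gave no value for any single one, so no spread between hearts, no test and no p-value could be given, and read depth was unknown. The series addressed where each factor binds in the heart.

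Mitochondrial carriers are small proteins with tandem repeats that sit, with few exceptions, in the inner mitochondrial membrane and exchange metabolites between the cytosol and the matrix. In the heart they export ATP in exchange for ADP, import phosphate, and move the malate, aspartate, glutamate and citrate that link cytosolic metabolism to oxidative metabolism. Other members carry cofactors, nucleotides, glutathione or iron. Hoxb13 is a posterior Hox protein, and Meis1, of the TALE homeobox class, is a known partner of Hox proteins on DNA.

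Start-site windows of 6 members are shown as examples, picked from the members with a peak over the start site or reaching into the window. They are RefSeq sequences of GRCm38.p6 (mm10), from 250 bases before to 50 bases after the start site, printed 5′ to 3′ on the strand of the gene and with positions counted from 1 at the 5′ end. In the first 3, capitals mark the bases under a Meis1 peak.
Slc25a5 (chrX:36795347-36795646, + strand): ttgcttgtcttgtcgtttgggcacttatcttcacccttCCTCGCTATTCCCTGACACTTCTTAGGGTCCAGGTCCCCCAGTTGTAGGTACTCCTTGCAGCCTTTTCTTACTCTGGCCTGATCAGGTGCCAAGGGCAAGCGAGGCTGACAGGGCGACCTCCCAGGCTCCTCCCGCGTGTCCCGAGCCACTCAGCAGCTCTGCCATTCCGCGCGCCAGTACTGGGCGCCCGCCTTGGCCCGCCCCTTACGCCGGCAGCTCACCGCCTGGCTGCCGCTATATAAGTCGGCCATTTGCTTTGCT
Slc25a34 (chr4:141623785-141624084, - strand): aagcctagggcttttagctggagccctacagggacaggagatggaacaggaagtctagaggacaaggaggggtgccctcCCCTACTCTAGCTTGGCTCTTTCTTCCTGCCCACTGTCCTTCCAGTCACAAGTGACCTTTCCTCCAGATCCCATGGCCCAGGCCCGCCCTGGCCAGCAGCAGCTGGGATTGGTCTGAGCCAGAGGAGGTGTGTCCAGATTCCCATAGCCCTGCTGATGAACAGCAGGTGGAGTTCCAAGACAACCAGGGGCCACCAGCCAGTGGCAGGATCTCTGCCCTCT
Slc25a12 (chr2:71367706-71368005, - strand): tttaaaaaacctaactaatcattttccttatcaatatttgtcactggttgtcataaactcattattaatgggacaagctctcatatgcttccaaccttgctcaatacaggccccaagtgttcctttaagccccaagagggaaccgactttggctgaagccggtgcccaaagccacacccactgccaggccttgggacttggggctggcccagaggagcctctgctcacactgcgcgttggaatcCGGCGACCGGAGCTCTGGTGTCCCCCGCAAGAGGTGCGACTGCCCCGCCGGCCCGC
In the next 3, capitals mark the bases under a Hoxb13 peak.
Slc25a30 (chr14:75786988-75787287, - strand): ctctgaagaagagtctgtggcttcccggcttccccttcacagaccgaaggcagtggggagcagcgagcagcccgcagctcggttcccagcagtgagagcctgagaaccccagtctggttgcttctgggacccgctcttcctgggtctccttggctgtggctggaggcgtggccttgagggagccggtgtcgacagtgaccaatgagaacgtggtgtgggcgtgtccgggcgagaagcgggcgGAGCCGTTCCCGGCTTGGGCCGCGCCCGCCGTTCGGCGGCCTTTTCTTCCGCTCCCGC
Slc25a4 (chr8:46211013-46211312, - strand): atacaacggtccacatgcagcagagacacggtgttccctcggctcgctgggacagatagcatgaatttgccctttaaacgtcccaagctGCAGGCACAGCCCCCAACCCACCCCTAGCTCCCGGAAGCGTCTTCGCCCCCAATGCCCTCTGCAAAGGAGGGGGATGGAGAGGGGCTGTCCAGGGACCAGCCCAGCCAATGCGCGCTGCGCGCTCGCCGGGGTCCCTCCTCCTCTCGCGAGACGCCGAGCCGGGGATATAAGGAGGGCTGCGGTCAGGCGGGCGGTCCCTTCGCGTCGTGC
Slc25a3 (chr10:91123918-91124217, - strand): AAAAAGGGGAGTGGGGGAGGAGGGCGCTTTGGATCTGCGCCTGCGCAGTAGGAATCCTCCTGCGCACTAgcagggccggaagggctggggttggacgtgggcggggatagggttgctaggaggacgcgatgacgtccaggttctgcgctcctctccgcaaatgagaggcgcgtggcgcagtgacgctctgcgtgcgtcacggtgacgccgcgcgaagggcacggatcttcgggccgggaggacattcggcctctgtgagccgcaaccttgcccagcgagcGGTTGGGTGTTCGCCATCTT
The Meis1 peak took in 262 of the 300 bases at Slc25a5, 221 at Slc25a34 and 56 at Slc25a12. The Hoxb13 peak took in 58 bases at Slc25a30 and 211 at Slc25a4. At Slc25a3 a pair of Hoxb13 peaks covered 89 bases, at the 2 ends of the window, and left the middle uncovered.

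Hoxb13 peaks were found at more of the carrier genes than Meis1 peaks, and mostly at their promoters. A Meis1 peak was assigned to 19 of the 46 members (41.3%), against 38.2% of all protein-coding genes, which is near the background. A Hoxb13 peak was assigned to 28 (60.9%), against 44.4% of all genes. Both factors had a peak at 15 members (32.6%), against 23.9% of all genes, and neither had one at 14 members (30.4%), against 41.3% of all genes. At promoters, which in the deposited classes lie within about 1 kb of a start site, Meis1 had a peak at 7 members (15.2%), against 8.16% of all genes. Hoxb13 had a promoter peak at 24 members (52.2%), against 30.7% of all genes. At least 2 Hoxb13 promoter peaks were listed at 5 of the 46 Slc25a genes (10.9%), against 6.86% of all genes. Among the 328 protein-coding genes of the other Slc families, 6.71% had a Meis1 promoter peak and 28.0% a Hoxb13 promoter peak. In that set 49.4% had a Meis1 peak anywhere, 46.3% a Hoxb13 peak and 26.8% peaks of both. Neither factor had a peak at 31.1% of that set, near the 30.4% of the members. Gene assignment followed the nearest start site of the deposited annotation, which need not be the nearest in RefSeq. The median locus, reaching from a gene's body to the midpoints between it and its protein-coding neighbours, was 32.4 kb for the members and 46.4 kb for all genes. Counting only peaks within 10 kb of a start site left 11 members with a Meis1 peak (all genes 19.5%) and 26 with a Hoxb13 peak (all genes 35.8%).

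**Figure D1:**
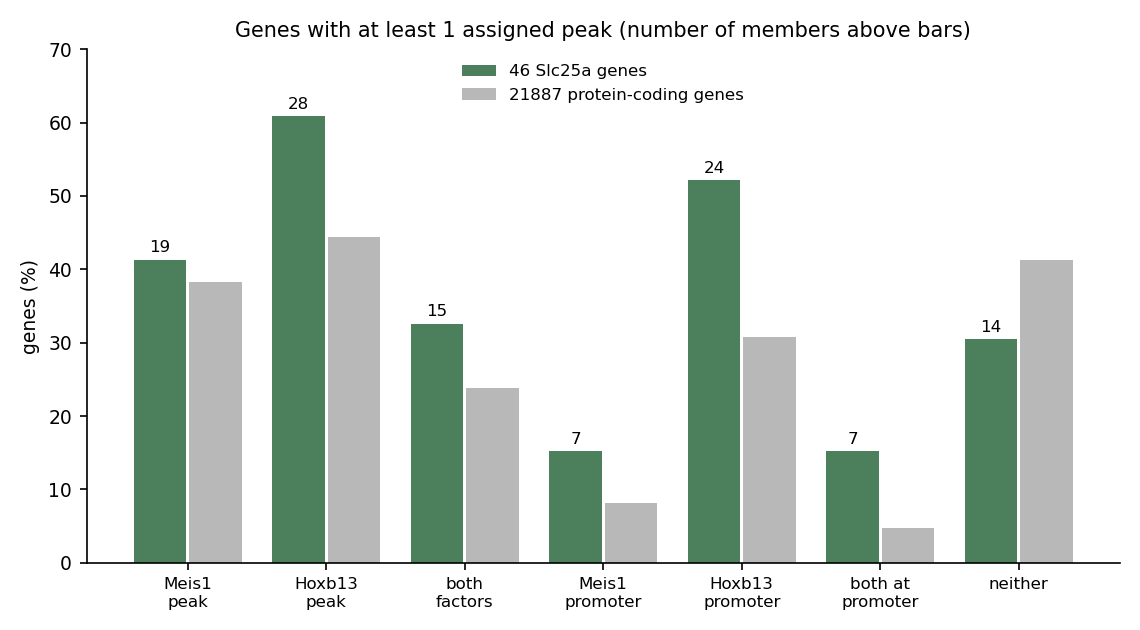
Share of genes (%) with at least 1 assigned peak, for the 46 Slc25a genes (green) and all 21887 protein-coding genes (grey), with the number of members above each green bar. The widest gap is at Hoxb13 promoter peaks, 52.2% of members against 30.7% of all genes.

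The 7 members with a Meis1 promoter peak were Slc25a5, Slc25a11, Slc25a12, Slc25a22, Slc25a34, Slc25a42 and Slc25a46, and each of the 7 also had a Hoxb13 promoter peak. Both factors thus had promoter peaks at 15.2% of the members, against 4.7% of all genes. Among all 1786 genes with a Meis1 promoter peak, 57.6% had a Hoxb13 promoter peak. Of the 19 members with a Meis1 peak anywhere, 15 (78.9%) had a Hoxb13 peak anywhere, against 62.5% of all genes with a Meis1 peak. The protocols say that the chromatin of each heart was divided between both antibodies, while the titles number the replicates of the factors separately, so the lists may share hearts.

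**Figure D2:**
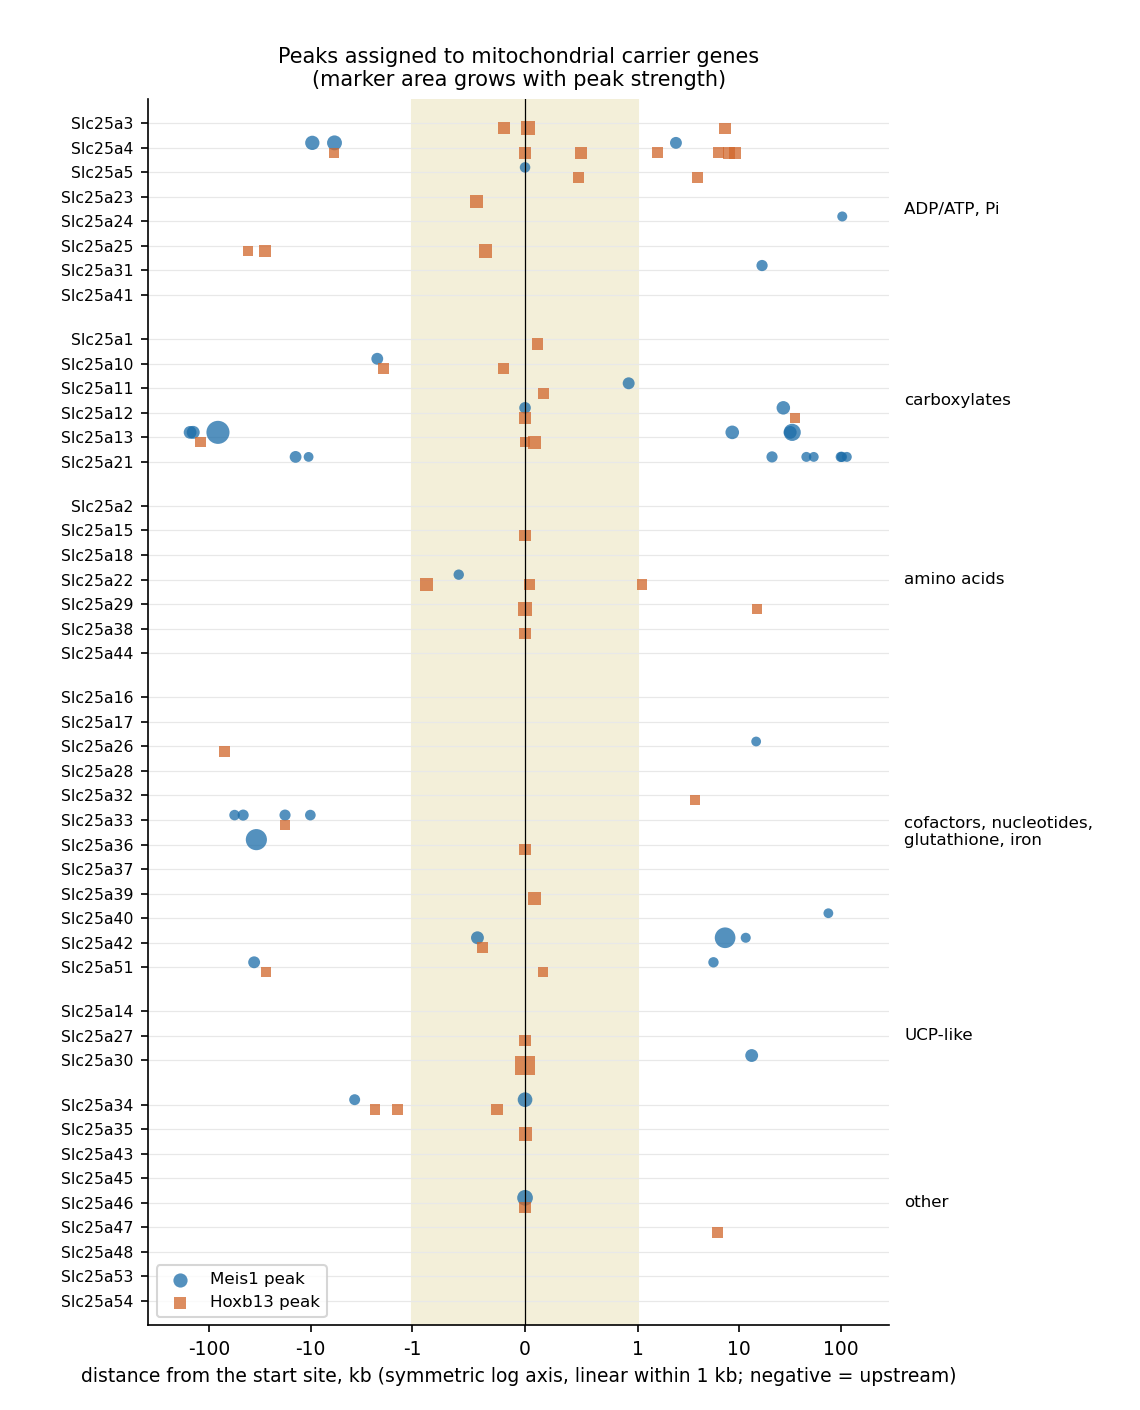
Positions of the peaks assigned to the members, 1 of them not drawn, as distance from the start site in kb on a symmetric log axis that is linear within 1 kb (shaded), with Meis1 as blue circles and Hoxb13 as orange squares. Marker area grows with the deposited strength, which is on a separate scale for each list. Most Hoxb13 squares sit in or near the shaded band, and Meis1 circles reach as far as 155 kb upstream.

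The carriers of ADP, ATP and phosphate were led by Slc25a4, which encodes the main ADP/ATP carrier of heart and skeletal muscle. It had 3 Meis1 peaks and 7 Hoxb13 peaks, and 308 protein-coding genes (1.41%) had 7 or more Hoxb13 peaks. A Hoxb13 peak lay over its start site (chromosome 8, 46210828 to 46211223, strength 29.4) and a second promoter peak 493 bp into the gene (46210121 to 46210516, strength 28.2). Another Hoxb13 peak was in exon 2 of 4 (strength 19.5). Past the 3' end, 3 Hoxb13 peaks followed at 6.28, 7.89 and 9.04 kb from the start site, with strengths of 21.0, 27.5 and 29.6. The next protein-coding gene on that side was Cfap97, whose body begins 15.5 kb from the Slc25a4 start site. Upstream, Meis1 (46216849 to 46217132, strength 48.0) and Hoxb13 (46216927 to 46217322, strength 18.3) overlapped by 206 bp, at 5.84 and 5.92 kb from the start site. The other Meis1 peaks were 9.66 kb upstream (46220668 to 46220951, strength 43.5) and in the 3' UTR (46208350 to 46208633, strength 27.3). Slc25a4 had no Meis1 promoter peak.

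**Figure D3:**
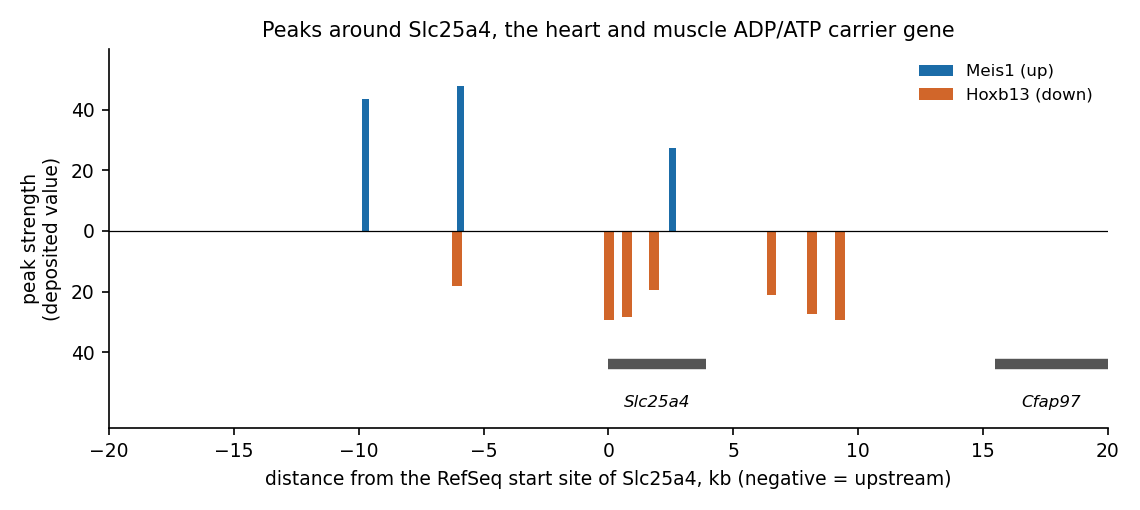
Deposited peak strength around Slc25a4 against distance from its RefSeq start site in kb, with Meis1 peaks drawn upward in blue and Hoxb13 peaks downward in orange, each bar as wide as its peak, and gene bodies as grey bars. Strengths of the 2 factors are on separate scales. The overlapping pair lies about 6 kb upstream, where the Meis1 bar reaches 48.0 and the Hoxb13 bar 18.3.

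Slc25a3, the phosphate carrier gene, had 3 Hoxb13 peaks and no Meis1 peak. Its promoter peaks flanked the start site, one on the gene side (chromosome 10, 91123542 to 91123937, strength 44.3, rank 1157 of the list) and one upstream (91124149 to 91124544, strength 31.4). The third was in the 3' UTR, 7.24 kb from the start site (strength 23.2). Slc25a5, which encodes the broadly expressed ADP/ATP carrier, differed from Slc25a4 in having a Meis1 peak over its start site (chromosome X, 36795385 to 36795668, strength 19.5). Its Hoxb13 peaks lay 471 bp (strength 23.3) and 3.84 kb (strength 21.2) downstream of the start site, and neither touched the Meis1 peak. Slc25a31, which encodes the ADP/ATP carrier known from testis, had 1 Meis1 peak, in its 3' UTR (strength 23.5), and no Hoxb13 peak.

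The remaining 4 genes of this group encode carriers that exchange ATP-Mg for phosphate. Among them Slc25a23 and Slc25a25 had strong Hoxb13 promoter peaks. These lay 429 bp upstream of Slc25a23 (chromosome 17, 57060292 to 57060687, strength 37.8) and 351 bp upstream of Slc25a25 (chromosome 2, 32451821 to 32452216, strength 39.5). The Slc25a25 peak lay within the body of Naif1 in the RefSeq table, so it cannot be tied to 1 of the genes. Slc25a25 had further Hoxb13 peaks 28.0 and 41.3 kb upstream. Slc25a24 had only a weak Meis1 peak, 103 kb from its start site (strength 16.8). Slc25a41, next to Slc25a23 on chromosome 17 with 2.06 kb between them, had no peak. In all, 1 of the 8 genes of this group had a Meis1 promoter peak (all genes 8.16%) and 5 a Hoxb13 promoter peak (all genes 30.7%).

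Of the 6 genes for carriers of carboxylates and of aspartate and glutamate, 5 had a Meis1 peak (all genes 38.2%) and 5 a Hoxb13 peak (all genes 44.4%). The 5 with a Hoxb13 peak each had a Hoxb13 promoter peak (all genes 30.7%), and none of the 6 was without a peak (all genes 41.3%). Slc25a12 and Slc25a13 encode the calcium-regulated aspartate/glutamate carriers of the malate-aspartate shuttle, the first being the form known from heart and brain and the second that of liver. At Slc25a12 both factors covered the start site, Meis1 from 71367478 to 71367761 on chromosome 2 (strength 25.5) and Hoxb13 from 71367510 to 71367905 (strength 26.8). These peaks overlapped by 252 bp and had summits 88 bp apart. A stronger Meis1 peak lay in intron 3 (strength 37.9) and a weaker Hoxb13 peak in intron 4 (strength 18.1).

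Slc25a13 had 6 Meis1 peaks, and none was at the promoter. The strongest Meis1 peak of any member, with strength 128 and rank 560, was assigned to it from 82.2 kb upstream (chromosome 6, 6299336 to 6299523), inside an intron of a transcript with no gene number in the deposited annotation. A further pair lay 144 and 155 kb upstream (strengths 34.2 and 32.8). Within the gene, Meis1 peaks were in intron 1 (strength 38.6) and intron 2 (strengths 66.7 and 33.1). Hoxb13 instead had a pair of overlapping peaks at the Slc25a13 start site, of strengths 36.1 and 19.9, and 1 peak 122 kb upstream (strength 18.4).

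Slc25a21, the oxodicarboxylate carrier gene, had the most Meis1 peaks of any member, with 8, and no Hoxb13 peak. Its gene body spans 485 kb, so this amounted to 1.596 Meis1 peaks per 100 kb of locus, against 5.98 for Slc25a4. The 8 strengths ran from 15.8 to 26.8, with 6 of the peaks in introns 2 and 3 and the others 10.5 and 14.1 kb upstream. The nearest Hoxb13 summits were 236 to 535 kb away.

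The other genes of this group are compact. Slc25a1, the citrate carrier gene, had 1 Hoxb13 peak 113 bp from its start site (strength 23.4). Slc25a10, the dicarboxylate carrier gene, had a Hoxb13 promoter peak 191 bp upstream (strength 18.01) and an intergenic Hoxb13 peak 1.93 kb upstream (strength 21.1) that overlapped a Meis1 peak (strength 27.0) by 109 bp, with summits 231 bp apart, also within 1 kb of the body of Mrpl12. At Slc25a11, which encodes the oxoglutarate/malate carrier of the same shuttle as Slc25a12, the Hoxb13 peak lay 162 bp from the start site (strength 22.5) and the Meis1 peak 919 bp from it (strength 27.7), with summits 701 bp apart. The Hoxb13 peak also lay 358 bp from the start site of Rnf167, the neighbouring gene. Another Hoxb13 peak, not assigned to Slc25a11, reached into the RefSeq start-site window of Slc25a11.

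Of the 7 genes for amino acid carriers, 4 had a Hoxb13 peak (all genes 44.4%) and 1 a Meis1 peak (all genes 38.2%). Neither factor had a peak at 3 of them (all genes 41.3%). Slc25a29, which encodes a carrier of basic amino acids, held the second strongest Hoxb13 peak of all members, over its start site (chromosome 12, 108835833 to 108836228, strength 45.0, rank 1090). Its other Hoxb13 peak (strength 21.1) was intergenic, within 1 kb of the body of Yy1. Slc25a15, the ornithine carrier gene, and Slc25a38, whose product imports glycine for haem synthesis, each had 1 Hoxb13 peak over the start site, both of strength 23.6. Slc25a22, a glutamate carrier gene, had 3 Hoxb13 peaks within its body of 8.13 kb, of strengths 36.1, 23.1 and 19.0. The peak of strength 23.1 was also within 1 kb of the body of Pidd1. Slc25a22 had 1 Meis1 peak too (strength 18.8). That Meis1 peak was listed 588 bp upstream of a start site but covered another RefSeq start site of Slc25a22, at 141435375. Its summit was 2.03 kb from the nearest Hoxb13 summit. Slc25a2, Slc25a18 and Slc25a44 had no peak. Of the 7 genes, 1 had a Meis1 promoter peak (all genes 8.16%) and 4 a Hoxb13 promoter peak (all genes 30.7%).

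Among the 13 carriers of cofactors, nucleotides, glutathione and iron, 6 had a Meis1 peak (all genes 38.2%) and 8 a Hoxb13 peak (all genes 44.4%). A Meis1 promoter peak was at 1 of the 13 (all genes 8.16%) and a Hoxb13 promoter peak at 5 (all genes 30.7%), so apart from Hoxb13 peaks anywhere these counts were near the background. Slc25a42, which encodes the carrier of coenzyme A, held the closest pair of summits of all members. Its Meis1 peak (chromosome 8, 70212703 to 70212986, strength 33.5) lay wholly within its Hoxb13 peak (70212658 to 70213053, strength 18.7), about 0.4 kb upstream of the start site, with summits 11 bp apart. Its strongest Meis1 peak was in intron 1 (70204871 to 70205033, strength 101, rank 856), and a weak one also lay there (strength 16.9).

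Slc25a33 and Slc25a36, both pyrimidine nucleotide carrier genes, differed in their peaks. Slc25a36 had a strong Meis1 peak 34.4 kb upstream (chromosome 9, 97145416 to 97145561, strength 106, rank 791) and a Hoxb13 peak over the start site (strength 26.3). Slc25a33 had 4 Meis1 peaks between 10.1 and 56.4 kb upstream, of strengths 19.7 to 22.8, and no promoter peak. Its only Hoxb13 peak overlapped one of the 4 by 228 bp, 17997 bp upstream (strength 18.9).

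Slc25a39, one of the glutathione carrier genes, had a Hoxb13 peak 84 bp from its start site (strength 37.1). Its paralogue Slc25a40 had only a weak Meis1 peak (strength 15.7), 75.5 kb away in an intron of Rundc3b. A RefSeq start site of Abcb1a was nearer to that peak, at 47743 bp. Slc25a51, which encodes the carrier of NAD, had a weak Hoxb13 promoter peak, 160 bp from its start site (strength 17.8). Its Meis1 peaks were in its own intron 2 (strength 18.7) and in an intron of Shb (strength 27.4), and a second weak Hoxb13 peak was in the body of Shb too (strength 17.9). Slc25a26, for S-adenosylmethionine, had 1 intronic Meis1 peak (strength 15.6) and 1 Hoxb13 peak 71.1 kb upstream (strength 19.8). Slc25a32, for folate, had 1 intronic Hoxb13 peak (strength 17.8), near the lowest of the list. The genes of both mitoferrins, Slc25a28 and Slc25a37, which import iron, had no peak, nor did Slc25a16 and the peroxisomal Slc25a17.

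The uncoupling-protein-like gene Slc25a30, known from kidney, held the strongest Hoxb13 peak of all members (chromosome 14, 75786944 to 75787045, strength 85.1, rank 241), over its start site and 102 bp wide. Its Meis1 peak was in intron 3 (strength 33.6). Slc25a27, known from brain, had 1 Hoxb13 peak over its start site (strength 24.2), also within 1 kb of the body of Cyp39a1. Slc25a14 had no peak.

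Of the 9 remaining members, 2 had a Meis1 peak (all genes 38.2%) and 4 a Hoxb13 peak (all genes 44.4%). Neither factor had a peak at 5 of them (all genes 41.3%). Slc25a46 and Slc25a34 had peaks of both factors at the promoter (all genes 4.7%). Slc25a46 encodes an outer membrane protein linked to mitochondrial shape. Its Meis1 peak (chromosome 18, 31609749 to 31610032, strength 54.2) was the strongest Meis1 promoter peak of all members and overlapped its Hoxb13 peak (31609555 to 31609950, strength 25.9) by 202 bp. At Slc25a34 the Meis1 peak covered the start site (chromosome 4, 141623722 to 141624005, strength 46.2), and the Hoxb13 peak began just upstream of it (141624083 to 141624478, strength 26.3), so the peaks did not overlap. Hoxb13 peaks 1.39 and 2.32 kb upstream of Slc25a34 and a Meis1 peak 3.70 kb upstream lay towards or in Plekhm2. Slc25a35 had a Hoxb13 peak over its start site (strength 34.9). Slc25a47, known from liver and next to Slc25a29, had 1 Hoxb13 peak just past its 3' end (strength 23.0). Slc25a43, Slc25a45, Slc25a48, Slc25a53 and Slc25a54 had no peak, although Slc25a43 neighbours Slc25a5 on chromosome X and Slc25a54 neighbours Slc25a24 on chromosome 3.

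Overlap between the factors, with at least 1 shared base, was met by 6 of the 41 Meis1 peaks (14.6%), against 5.54% of the Meis1 list, and by 6 of the 50 Hoxb13 peaks (12.0%), against 7.93% of the Hoxb13 list. The 6 pairs were those of Slc25a4, Slc25a10, Slc25a12, Slc25a33, Slc25a42 and Slc25a46, and 3 of them were at promoters. At promoters overlap was met by 3 of 7 member Meis1 peaks (42.9%), against 36.4% of the list's Meis1 promoter peaks. Outside promoters it was met by 3 of 34 (8.82%), against 3.32%. For member Hoxb13 peaks the shares were 10.3% against 8.90% at promoters and 14.3% against 7.28% outside. In the stronger 50% of each list the overlap was met by 2 of 31 member Meis1 peaks, against 5.63% of the Meis1 peaks there, which is near the background. Summits within 100 bp of each other were found only at Slc25a12 and Slc25a42 among the 6. The nearest Hoxb13 summit was within 10 kb for 19 of the 41 Meis1 peaks (46.3%), against 20.6% of the Meis1 list. That share was not split by class.

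Member peaks also differed from the lists in class and strength. Of the Meis1 peaks 17.1% were in the promoter class, against 6.73% of that list, 46.3% in introns, against 33.4%, and 29.3% intergenic, against 54.9%. Of the Hoxb13 peaks 58.0% were in the promoter class, against 40.3% of that list, and 8.0% in introns, against 23.4%. The median strength was 25.5 for member Meis1 peaks, against 18.7 for the Meis1 list, and 23.3 for member Hoxb13 peaks, against 21.4 for the Hoxb13 list. Promoter peaks had the higher median in both lists, so each class is given by itself. Outside promoters the medians were 23.3 for member Meis1 peaks, against 18.5, and 19.8 for member Hoxb13 peaks, against 20.1. At promoters they were 27.7 for member Meis1 peaks, against 23.6, and 26.3 for member Hoxb13 peaks, against 25.0. Peaks of 1 gene are not independent of each other, and Slc25a21 and Slc25a13 alone gave 14 of the Meis1 peaks.

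**Figure D4:**
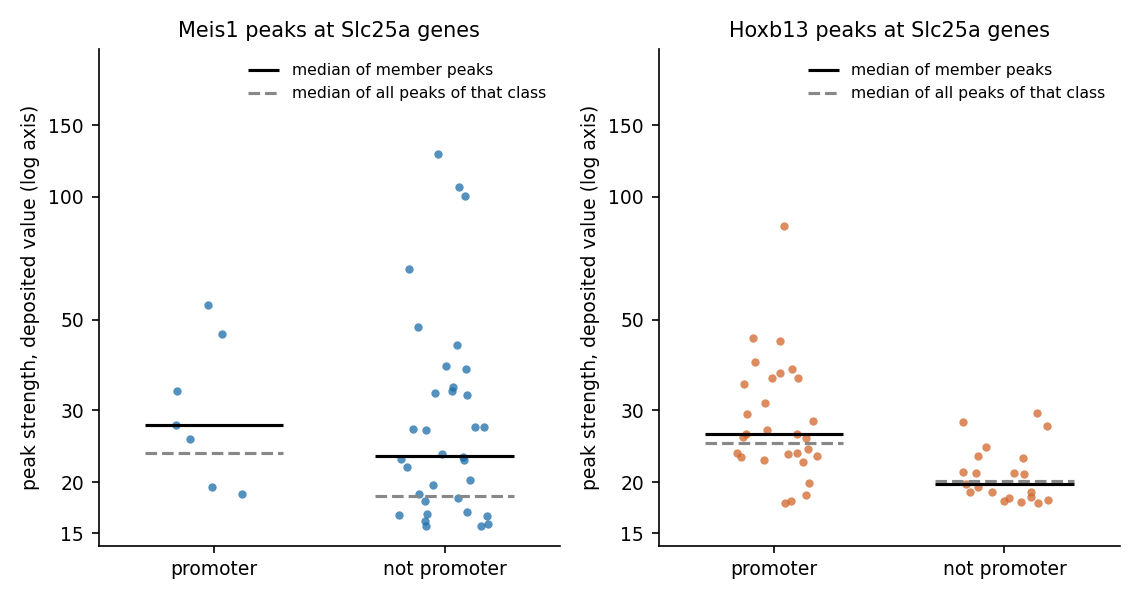
Deposited strength (log axis) of each peak assigned to a member, by factor and by promoter class, with the median of the member peaks as a solid line and the median of all peaks of that class in the list as a dashed line. Outside promoters the median of the member Meis1 peaks is 23.3 against 18.5 for the list, and for Hoxb13 it is 19.8 against 20.1.

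Base composition at the start site moved with Hoxb13 peaks over all genes. RefSeq windows of the kind printed above were found for 35 of the 46 members (45 windows, some of them overlapping) and for 17492 protein-coding genes (21263 windows). A Hoxb13 peak lay over 14 of the 45 member windows (31.1%), against 24.0% of all windows, and a Meis1 peak over 4 (8.89%), against 5.31%. The Hoxb13 count includes the window of Slc25a11, where the peak was not assigned to that gene. With all windows ranked by G and C content into 4 groups, 2.38% lay under a Hoxb13 peak in the poorest group and 45.6% in the richest. The member windows held a median of 59.7% G and C, against 56.3% for all windows. In the richest group 7 of 14 member windows lay under a Hoxb13 peak, in the next 4 of 15 (all windows 32.9%), then 2 of 13 (14.3%), and in the poorest 1 of 3. The part of base composition in the members' Hoxb13 count was not tested.

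**Figure D5:**
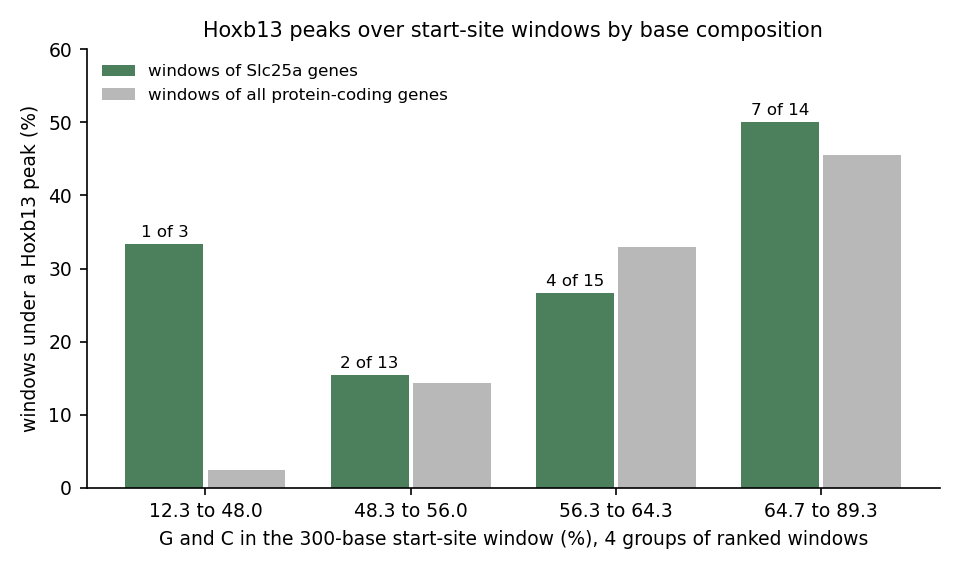
Share of 300-base start-site windows (%) under a Hoxb13 peak, for windows of the members (green, with counts) and of all protein-coding genes (grey), in 4 groups of windows ranked by G and C content. Among all windows the share climbs from 2.38% to 45.6%, and the members have 7 of 14 in the richest group.

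Short motifs were searched on both strands of the same windows. The Meis motif TGACAG was in 9 of the 45 member windows (20.0%) and in 18.7% of all windows. Among the 1130 windows under a Meis1 peak 44.4% held it, and among the 4 member windows under one, 1 did, that of Slc25a5. There, TGACAG began at position 145 of the printed window, with its middle 33 bp from the Meis1 summit. The posterior Hox motif CCAATAAA was in 1 member window, that of Slc25a28, and in 0.912% of all windows. Among all windows under a Hoxb13 peak 0.979% held it, against 0.891% of those without one. Of the 14 member windows under a Hoxb13 peak, 0 held it. This motif contains the CCAAT box, searched as CCAAT, which was in 22 member windows (48.9%) and in 38.2% of all windows. The ETS motif CCGGAAG was in 6 (13.3%), against 11.6% of all windows, and the NRF1 core TGCGCA in 4 (8.89%), against 9.74%. The nuclear receptor core AAGGTCA was in 1 member window, against 4.08% of all windows. That 1 was Slc25a34, where it is read on the other strand from position 132 under the Meis1 peak. In the printed Slc25a4 window, CCGGAAG began at position 121 and CCAAT at positions 139 and 195, all under the Hoxb13 peak. Their middles were 163, 146 and 90 bp from its summit. In that of Slc25a3, TGCGCA began at positions 42 and 61 under a Hoxb13 peak, 173 and 192 bp from its summit. CCGGAAG at position 76 of the Slc25a3 window was under no peak, nor was CCAAT at position 199 of the Slc25a30 window.

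Of 5 family members with other names, 4 had a Hoxb13 peak (all genes 44.4%), namely Ucp2, Ucp3, Mtch1 and Mtch2. A Meis1 peak was at 3 (all genes 38.2%) and a Hoxb13 promoter peak at 3 (all genes 30.7%). Ucp1, the uncoupling protein of brown fat, had no peak of either factor. Ucp3, the form known from muscle, had 3 Meis1 peaks and 1 Hoxb13 peak, with both factors at the promoter. Of 21 further mitochondrial channel and transporter genes, 12 had a Meis1 peak (all genes 38.2%), 14 a Hoxb13 peak (all genes 44.4%) and 13 a Hoxb13 promoter peak (all genes 30.7%). Among these, the pyruvate carrier gene Mpc1 had 3 Hoxb13 promoter peaks and 1 Meis1 promoter peak, and Vdac3, which encodes an outer membrane channel, had 5 Meis1 and 4 Hoxb13 peaks. Of 11 genes that import carrier proteins into mitochondria, 5 had a Meis1 peak (all genes 38.2%) and 8 a Hoxb13 peak (all genes 44.4%). Tomm20, an import receptor gene, had 7 peaks of each factor, and none of them was in the promoter class.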

How the data were processed

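The submitters' processing notes name the mm10 build and the tools ChIPseeker, Picard, deepTools 1.6 and Bowtie2 2.2.3, without their roles. Peak caller, threshold and pooling of libraries: not given in the sources used here. Deposited by the authors was 1 annotated peak list per factor. The signal value of each peak, called strength in the text, and a score, not used further, are the authors' deposited values under bare column numbers; strength was used only within a list. Most peaks had 1 fixed width, 284 bp for Meis1 and 396 bp for Hoxb13. Depth per library was unknown, and the 6 input libraries gave no value here. No marker of heart tissue can be read from peak positions.

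Peaks were taken by the deposited gene symbol and matched by Entrez number to RefSeq. Counts, overlaps (at least 1 bp) and motif matches were computed in Python 3.11.15 with pandas 2.3.3 and drawn with matplotlib 3.10.9; the overlap code was tested on simulated data. Promoter windows are from RefSeq GRCm38.p6, which held none for 11 members. Members, gene lists and tests were chosen with earlier results of these data known, and the motifs after the peak positions were seen. All members were counted, and 1 is not reported here by name. Given in full were otherwise those with a shared peak or a Meis1 promoter peak, the 5 with the strongest and the 3 with the most peaks of each factor, and up to 3 of each functional list by their strongest promoter peak. Of the import genes listed, Timm18 had no match. Alternatives were the stronger 50% and the strongest 10% of each list, equal list sizes, and peaks within 10 kb. Further ones were a 3 kb promoter, stricter overlap, and promoter peaks with no other start site found within 1 kb.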

Additional observations from a re-analysis of the deposited data

How the results depend on the processing

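Of 35 alternative values, 22 stayed within 1.5 times the value as deposited, and 13 moved further. This tally does not measure how stable the results are. Shortening a list lowers its counts by itself, and every value from the strongest 10% moved. Equal list sizes shortened only the Meis1 list, so the counts of Hoxb13 peaks could not move there. In the stronger 50% of each list, member Hoxb13 peaks numbered 31 (50 as deposited) and Meis1 peaks overlapping a Hoxb13 peak 2 (6), against 5.63% of the list's Meis1 peaks, while genes with a Hoxb13 promoter peak numbered 21, against 23.1% of all genes. Keeping peaks up to 10 kb away, 11 members had a Meis1 peak (19 as deposited), against 19.5% of all genes, and Meis1 peaks numbered 15 (41). With summits within 100 bp, 2 Meis1 peaks were shared, against 1.93% of the list. In the strongest 10% of each list, chosen after the data were seen, 6 members had a Meis1 peak (all genes 9.05%), 6 a Hoxb13 peak (8.32%), 0 both (1.55%), 2 a Meis1 promoter peak (1.44%) and 6 a Hoxb13 promoter peak (6.58%), from 7 Meis1 and 6 Hoxb13 peaks, of which 0 overlapped. Without promoter peaks that have another gene's start site within 1 kb, also chosen after the data were seen, 7 members had a Meis1 promoter peak (all genes 7.53%) and 23 a Hoxb13 promoter peak (27.8%). Other start sites were looked up only in the RefSeq promoter windows, found for 17492 protein-coding genes, so some neighbours could be missed. None could be looked up for Slc25a46, which was kept. No paired analysis was possible because each list holds 1 value per peak over 3 libraries. For the same reason no library could be left out. A gene without a listed peak may hold sites below the unknown threshold, and the fixed widths differ, so Hoxb13 peaks overlap a given site more easily.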
